A study of Mus musculus with 21 samples.

Results

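Transcripts of 10 genes that mark endothelial cells, the cells that line blood vessels, were followed in mouse gastrocnemius muscle as a proxy of its capillary content. The genes were Pecam1, Cdh5, Cldn5, Esam, Tie1, Eng, Robo4, Emcn, Plvap and Egfl7. They were taken by symbol from the table of raw counts, where they were 10 of 40853 genes, and all 10 passed the filter on low counts that left 16129 genes to be tested. The rule named the symbols and set no threshold on a value.

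Poly(A)-selected RNA of the medial gastrocnemius belly was sequenced from 21 female C57BL/6NJ mice, 7 per group, each mouse giving 1 library. The mice were 10 weeks of age when the protocol began. Mice of the Inactive group stayed in standard housing without training, mice of the Active group ran on an inclined treadmill on 5 days per week for 6 weeks, and mice of the Activity Reduction group trained in the same way for 4 weeks and were then inactive for 2 weeks. Full sessions lasted 40 min, most of it at about 70% of maximal speed. Mice of all groups ran maximal tests to exhaustion, the last of them 48 to 72 h before the muscle was taken, and all were fasted before collection. The Inactive mice had therefore also run.

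Endothelial cells form the inner wall of every vessel and are joined to each other by cadherin and claudin junctions that set what passes between blood and tissue. In skeletal muscle most of them lie in the capillaries that run along the fibres, and capillary supply is known to respond to endurance training. The products of the 10 genes are found at these junctions, on the cell surface, among the signalling receptors and among the secreted proteins of the endothelium. In RNA from whole muscle, fewer endothelial cells and less RNA per endothelial cell cannot be told apart.

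Counts on genes totalled 38482455 to 59785132 per library. The Active libraries were all shallower than the shallowest Inactive one, with medians of 53278181 for Inactive, 46532461 for Active and 49829192 for Activity Reduction. The 10 endothelial transcripts had between 166 counts (Cldn5) and 3981 counts (Cdh5) in a library, so counting error was widest for Cldn5. Levels are given as normalized read counts, which are counts divided by the size factor of the library. The labelled tissue was matched by its markers, as Acta1, the skeletal actin of muscle fibres, had between 1131690 and 1498440 normalized counts. Transcripts of 24 genes that are mainly made in hepatocytes set 8 libraries, which held more of them (770.5 to 2344 CPM in sum, counts scaled to the library total) apart from 13, which held fewer (163 to 358). Of the 8 libraries, 5 were Active, 2 were Activity Reduction and 1 was Inactive, so this division was unevenly spread over the groups. In the order of the sample numbers, the 8 libraries came first and the 13 after them. The division therefore cannot be told apart from the order of the samples. Summed over the 24 genes, the liver transcripts ranged from 10946 to 112425 normalized counts in the Inactive group, from 10659 to 99169 in the Active group and from 8315 to 78828 in the Activity Reduction group. Every one of the 24 genes was counted in the series, and Mup20 alone was at 0 in some libraries, which were 5.

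The endothelial transcripts differed in abundance, and their order depended on which transcript length was used. Per kilobase of the canonical transcript, Egfl7 had the highest level (804 ± 92.0 normalized counts per kb, SD, n = 21 libraries) and Emcn the lowest (121 ± 16.7). Pecam1 (742 ± 62.5) and Cdh5 (735 ± 77.1) followed Egfl7, then Esam (511 ± 48.5), Eng (383 ± 42.9), Tie1 (357 ± 25.0), Plvap (239 ± 47.4), Cldn5 (175 ± 46.1) and Robo4 (151 ± 14.3). Neighbours in this order were not all separated. Pecam1 exceeded Cdh5 in 11 of 21 libraries, Egfl7 exceeded Pecam1 in 14 and Cldn5 exceeded Robo4 in 15, whereas Cdh5 exceeded Esam and Esam exceeded Eng in all 21. When the length of all annotated exons was used in its place, Cdh5 ranked 1st and Egfl7 7th, and Emcn remained 10th.

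The members also differed in how steady they were. Cldn5 varied most between libraries, with a coefficient of variation of 26.4%, followed by Plvap with 19.9%. The highest library had 2.49 times the lowest for Cldn5 and 2.08 times for Plvap. Tie1 was the steadiest at 7.02%, and Pecam1 had 8.43%. The spread of a member set how small a group difference could be seen for it.

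**Figure D1:**
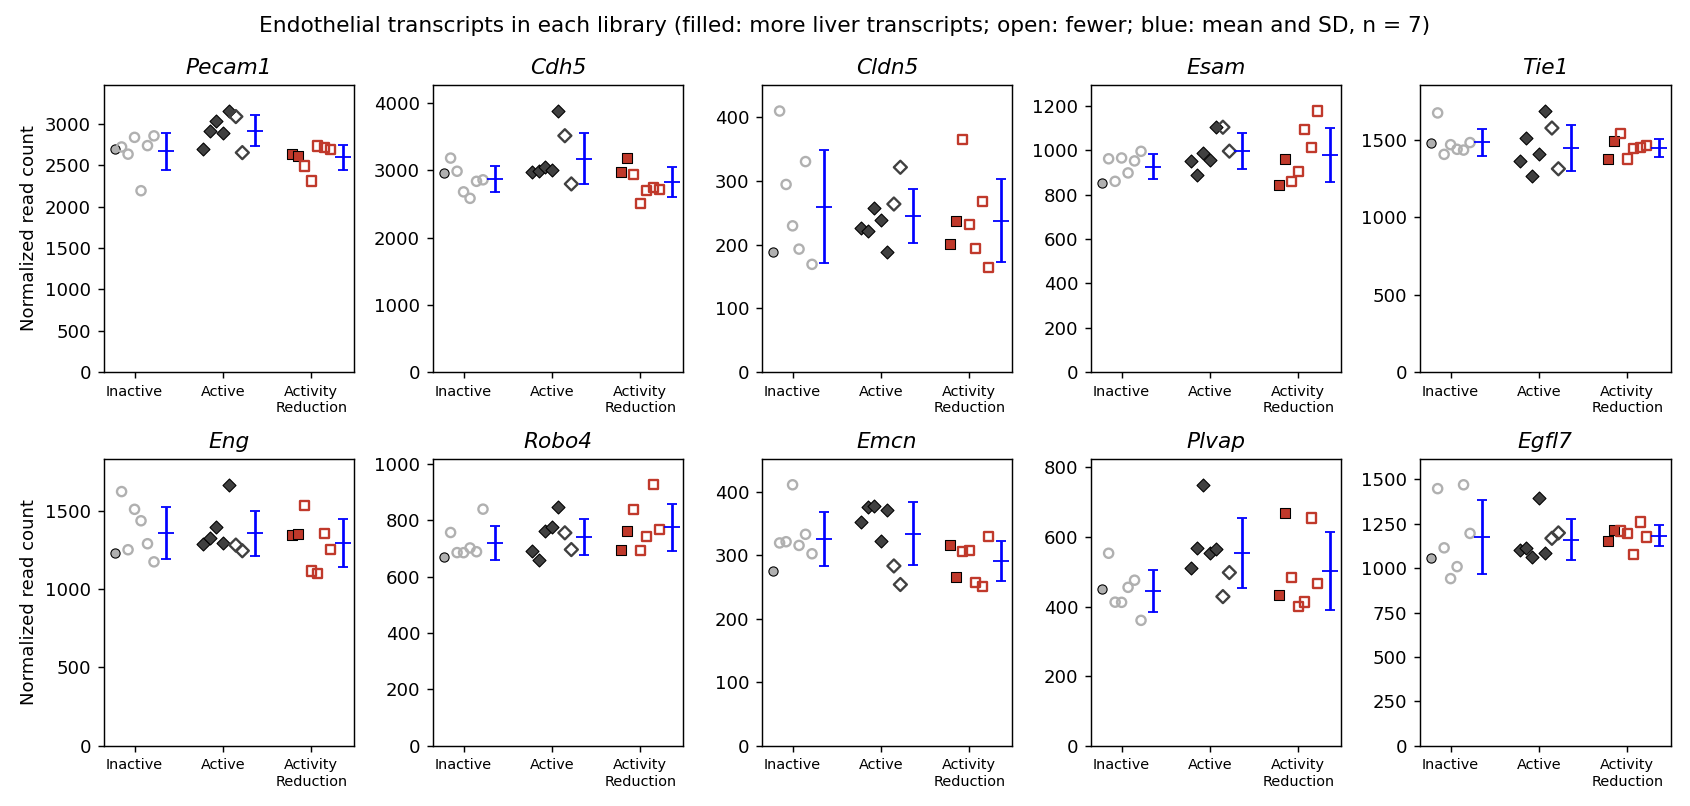
Normalized read counts (vertical axis, starting at 0) of the 10 endothelial transcripts in each of the 21 libraries, by training group. Filled symbols are the 8 libraries with more liver transcripts, open symbols the other 13, and blue bars the mean and SD of 7 libraries. The groups overlap for all 10 transcripts, and the share of all genes whose groups overlap is not given here. Pecam1 shows the Active group highest, with 5 Active libraries above every Inactive one.

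Pecam1 encodes PECAM-1 (CD31), an adhesion protein of endothelial junctions and the usual stain for capillaries. The gene lies on the minus strand of GRCm39 at chr11:106543689-106641454. Its normalized read counts ran from 2193 to 2856 in the Inactive group (median 2722), from 2654 to 3157 in the Active group (median 2920) and from 2311 to 2733 in the Activity Reduction group (median 2634). Of the 7 Active libraries, 5 lay above every Inactive library, and of the 7 Activity Reduction libraries, 4 lay below every Active library. The ranges of each pair of groups nevertheless overlapped. The log2 fold change was 0.14 for Active against Inactive (SE 0.055, adjusted p = 0.383, edgeR quasi-likelihood test, Benjamini-Hochberg adjustment) and -0.17 for Activity Reduction against Active (SE 0.055, adjusted p = 0.183, same test). Those values correspond to a level 9.95% higher (95% interval 1.02-fold to 1.19-fold) and to 0.888-fold (0.821 to 0.960). Activity Reduction against Inactive gave -0.03 (SE 0.055, adjusted p = 0.950, same edgeR test). Pecam1 therefore differed before adjustment in both comparisons that involve the Active group and passed the adjusted threshold in neither.

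Cdh5 encodes VE-cadherin, the cadherin that holds endothelial cells together (chr8:104828231-104871143, plus strand). Cdh5 counts after normalization ran from 2584 to 3183 in the Inactive group (median 2860), from 2799 to 3883 in the Active group (median 3006) and from 2513 to 3191 in the Activity Reduction group (median 2745). The groups overlapped, with 2 Active libraries above every Inactive library and 4 Activity Reduction libraries below every Active one. The log2 fold change was 0.15 for Active against Inactive (SE 0.067, adjusted p = 0.425, edgeR quasi-likelihood test, Benjamini-Hochberg adjustment). The value was -0.17 for Activity Reduction against Active (SE 0.067, adjusted p = 0.278, same edgeR test), and for Activity Reduction against Inactive it was -0.02 (adjusted p = 0.984). Active replicate 5 had the highest Cdh5 value of the 21 libraries, 3883.

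Esam encodes an endothelial adhesion molecule of tight junctions (chr9:37439344-37449615, plus strand). Its normalized read counts ran from 854 to 995 in the Inactive group (median 952), from 887 to 1106 in the Active group (median 986) and from 842 to 1177 in the Activity Reduction group (median 963). The groups overlapped, and the Activity Reduction group spanned the range of both others. The log2 fold changes were 0.11 (Active against Inactive), 0.08 (Activity Reduction against Inactive) and -0.03 (Activity Reduction against Active), each with a SE of 0.070.

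Cldn5 encodes claudin-5, the main claudin of endothelial tight junctions, and is a gene of 1 exon (chr16:18595597-18597012, plus strand). Normalized read counts of Cldn5 ran from 169 to 410 in the Inactive group (median 229), from 188 to 321.3 in the Active group (median 238) and from 165 to 365 in the Activity Reduction group (median 232). The groups overlapped almost fully. The log2 fold change of -0.07 for Active against Inactive had a 95% interval from -0.46 to 0.32, so a difference of the size seen for Pecam1 could not have been resolved for Cldn5. The sign was not stable. It turned to 0.07 without Inactive replicate 2, the library at the top of that group. With the division of libraries by liver transcripts as a term in the fit it was 0.10, and among the 13 libraries with fewer it was 0.11.

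Among the receptors, Tie1, an orphan receptor tyrosine kinase that works with the angiopoietin receptor Tek (chr4:118328385-118347261, minus strand), was almost level. Tie1 had normalized read counts from 1407 to 1674 in the Inactive group (median 1469), from 1269 to 1687 in the Active group (median 1406) and from 1376 to 1541 in the Activity Reduction group (median 1449). The ranges overlapped, and 4 Active libraries lay below every Inactive library while 1 lay above. Its log2 fold changes were -0.03, -0.03 and -0.00069 for Active against Inactive, Activity Reduction against Inactive and Activity Reduction against Active. The 95% intervals of Tie1 lay within 0.904-fold and 1.08-fold in all 3 comparisons, and the sign of the last value changed with DESeq2 size factors.

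Eng encodes endoglin, a co-receptor for TGF-beta family ligands (chr2:32535543-32574661, plus strand). Normalized counts for Eng ran from 1174 to 1623 in the Inactive group (median 1290), from 1245 to 1666 in the Active group (median 1294) and from 1101 to 1535 in the Activity Reduction group (median 1343). The medians lay close together within overlapping ranges, and the log2 fold changes were 0.0048 (Active against Inactive), -0.07 (Activity Reduction against Inactive) and -0.07 (Activity Reduction against Active), with a SE of 0.083 each. The sign for Active against Inactive turned to -0.12 in the fit of the 13 libraries and to -0.03 with the liver division as a term, and it was also below 0 with DESeq2, with DESeq2 size factors and with library totals alone.

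Robo4 encodes an endothelial receptor of the Roundabout family that stabilises vessels (chr9:37313193-37326411, plus strand). Its normalized read counts ran from 670 to 839 in the Inactive group (median 688), from 657 to 847 in the Active group (median 755) and from 691 to 925 in the Activity Reduction group (median 763). All 7 Activity Reduction libraries lay above the Inactive median, within overlapping ranges. The log2 fold change for Activity Reduction against Inactive was 0.11 (SE 0.070, adjusted p = 0.758, edgeR quasi-likelihood test, Benjamini-Hochberg adjustment). Unlike Pecam1 and Cdh5, Robo4 had its highest mean in the Activity Reduction group (774 ± 82.9, against 741 ± 64.0 in the Active and 718 ± 60.2 in the Inactive group, SD, n = 7 each).

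Plvap encodes the protein of the diaphragms that close endothelial fenestrae and caveolae (chr8:71948674-71964506, minus strand). The normalized read counts ran from 360 to 553 in the Inactive group (median 450), from 428 to 750 in the Active group (median 553) and from 400 to 668 in the Activity Reduction group (median 465). The groups overlapped, with 4 Active libraries above every Inactive library. The log2 fold change of 0.32 for Active against Inactive was the largest among the 10 members (24.8% higher, SE 0.128 on the log2 scale, 95% interval 0.05 to 0.59 on that scale, adjusted p = 0.385, edgeR quasi-likelihood test, Benjamini-Hochberg adjustment). The value was smaller in the fits that took account of the liver division. The term for that division was 0.22 for Plvap (SE 0.117, adjusted p = 0.475, edgeR quasi-likelihood test). The Active mean was 590 over the 5 libraries richer in liver transcripts and 463 over the 2 others, and in a fit of only the 13 libraries with fewer, the Active against Inactive value was 0.06 (adjusted p = 0.979, edgeR). With the division as a covariate it was 0.19 (adjusted p = 0.754, edgeR).

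Emcn encodes endomucin, a sialomucin of the luminal surface of capillaries and veins (chr3:137046794-137138999, plus strand). Its normalized read counts ran from 276 to 411 in the Inactive group (median 319.5), from 254 to 377 in the Active group (median 353) and from 251 to 330 in the Activity Reduction group (median 306.4). The ranges overlapped, and none of the Activity Reduction libraries reached the Active median. The log2 fold change was -0.20 for Activity Reduction against Active (95% interval -0.41 to 0.0032, adjusted p = 0.383, edgeR quasi-likelihood test, Benjamini-Hochberg adjustment) and 0.04 for Active against Inactive. The direction for Emcn was not stable when the libraries were divided by their liver transcripts. The term for that division was 0.11 for Emcn (SE 0.099, adjusted p = 0.767, edgeR quasi-likelihood test). The Active mean was 360 over the 5 libraries richer in liver transcripts and 269 over the 2 others. Within the 13 libraries with fewer, the log2 fold change was -0.31 for Active against Inactive (adjusted p = 0.812, edgeR) and 0.11 for Activity Reduction against Active.

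The stretches before the start sites of Emcn and Cldn5 are shown because these members, as described further on, followed the others least over the 21 libraries. Endothelial genes commonly carry sites for ETS factors, a family whose core motif is GGAA, and the motif searched was CAGGAA on either strand, TTCCTG being its reverse complement. Both stretches are from RefSeq promoter entries (table build GRCm38.p6) that matched GRCm39 exactly, cut at the annotated gene start, 5′ to 3′ on the plus strand, with CAGGAA matches in capitals. The Emcn stretch is chr3:137046589-137046793 (205 bases, 39.0% G or C), and the Cldn5 stretch is chr16:18595347-18595596 (250 bases, 59.6% G or C).
Emcn: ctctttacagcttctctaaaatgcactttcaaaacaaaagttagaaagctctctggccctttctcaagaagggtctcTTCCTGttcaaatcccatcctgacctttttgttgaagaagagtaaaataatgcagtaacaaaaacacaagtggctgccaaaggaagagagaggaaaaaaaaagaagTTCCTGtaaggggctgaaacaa
Cldn5: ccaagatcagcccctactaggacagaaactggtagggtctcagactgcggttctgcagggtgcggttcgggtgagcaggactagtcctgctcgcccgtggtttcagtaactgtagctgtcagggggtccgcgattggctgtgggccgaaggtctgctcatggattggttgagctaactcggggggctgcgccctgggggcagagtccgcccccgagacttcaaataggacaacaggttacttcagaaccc

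Emcn held the motif 128 to 123 and 22 to 17 bases before its start, and Cldn5 held none. Of the 10 members, 6 had a promoter entry (Cldn5, Emcn, Tie1, Eng, Robo4 and Egfl7), and 4 of these 6 held CAGGAA in the 250 bases before the RefSeq start, where 25.6% of 32536 promoters did and 23.0% of those of genes tested. Another ETS form, CCGGAA, was in 0 of the 6 windows (12.1% of all promoters and 19.0% of those of genes tested), and the GATA form AGATAA was in 0 of the 6 (9.97% and 6.24%). The first promoter entry of each member was used (Egfl7 had 3), whereas the shares count every distinct promoter. RefSeq starts also differed from the starts of the canonical transcripts. The Egfl7 window ended at base 26471094, before the canonical start at 26473753. Those of Emcn, Eng, Tie1 and Robo4 ran past the canonical start. A match is a run of letters and not a measured binding site.

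Egfl7 encodes a protein secreted by endothelial cells into the vessel matrix, and its locus also holds the endothelial microRNA gene Mir126a (chr2:26468286-26486789, plus strand). Egfl7 had normalized read counts from 941 to 1469 in the Inactive group (median 1114), from 1064 to 1397 in the Active group (median 1115) and from 1077 to 1259 in the Activity Reduction group (median 1195). The Inactive range enclosed every value of both other groups. The log2 fold changes were -0.01, 0.01 and 0.02 in the order Active against Inactive, Activity Reduction against Inactive and Activity Reduction against Active, and the signs of the last 2 changed with library totals in place of TMM. Mir126a itself had 0 to 6 counts per library, and a poly(A) library is not suited to measuring a mature microRNA.

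Exons of some members overlap those of a gene on the opposite strand, and whether the counting used strand is not given in the sources used here. The overlap covered 21.7% of the annotated exonic length of Plvap (with Gtpbp3), 13.6% of that of Egfl7 (with Agpat2) and 11.03% of that of Eng (with Fpgs). Gtpbp3 had a log2 fold change of -0.08 for Active against Inactive, opposite in sign to Plvap. Agpat2 had 0.36 (adjusted p = 0.388) for Active against Inactive and -0.49 (adjusted p = 0.171) for Activity Reduction against Active (edgeR quasi-likelihood test, Benjamini-Hochberg adjustment), whereas Egfl7 stayed near 0 in both. If strand was not used, reads of the partners in a pair cannot be told apart over the shared exons.

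**Figure D2:**
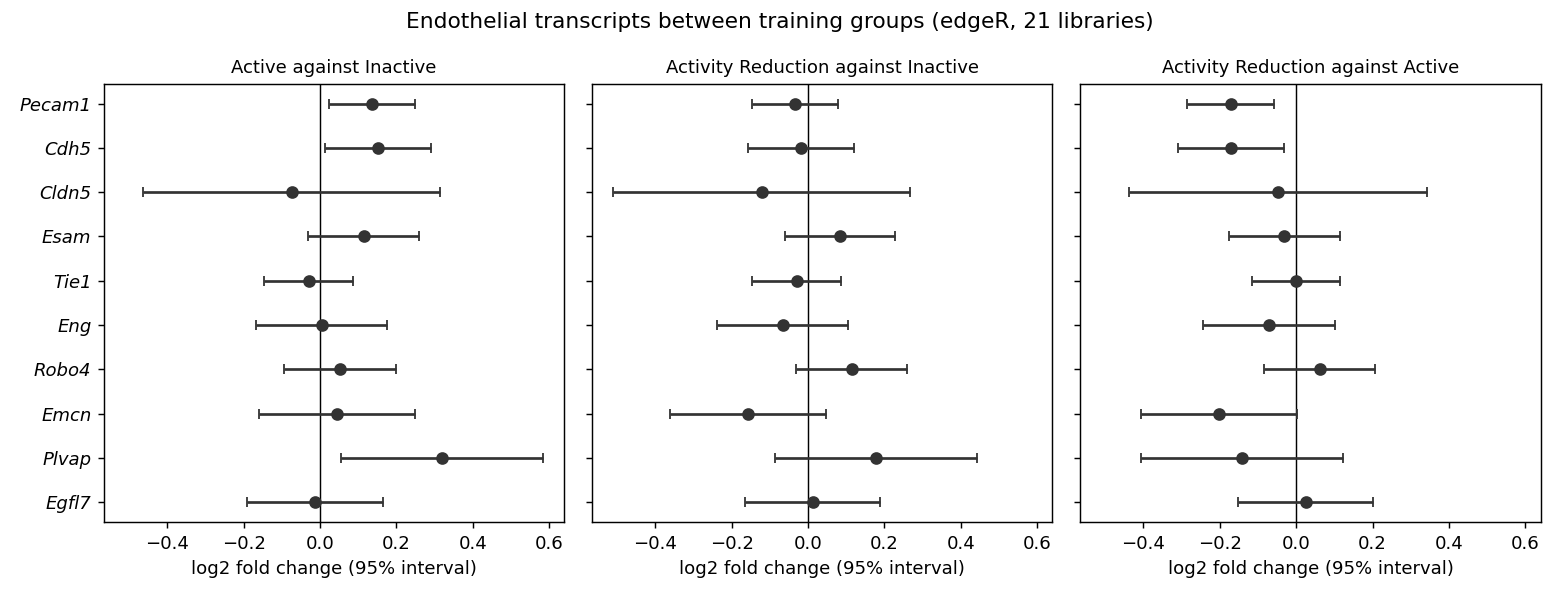
Log2 fold change (horizontal axis) with its 95% interval for each of the 10 endothelial transcripts in the 3 comparisons, from 1 edgeR model of 21 libraries. Intervals of Pecam1, Cdh5 and Plvap exclude 0 for Active against Inactive, those of Pecam1 and Cdh5 exclude it for Activity Reduction against Active, and none does for Activity Reduction against Inactive.

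The first comparison asked whether training changed the endothelial transcripts, as the Active group had trained up to the end and the Inactive group had not. Differentially expressed was defined as an adjusted p-value under 0.05 and a log2 fold change over 0.25 in either direction. By that rule 0 of the 10 members were differentially expressed with edgeR, where 0% of all genes tested were, and DESeq2 on the 3 groups also called 0 of the 10, where it called 0.424% of its genes. At an unadjusted p-value under 0.05, 3 members were higher in the Active group (Pecam1, Cdh5 and Plvap) and 0 were lower, where 6.18% of all genes tested were higher and 4.69% lower, 10.9% in all. In all, 7 members had a positive log2 fold change and 3 a negative one (Eng, among the 7, turned negative with DESeq2 size factors), where 51.6% and 48.4% of all genes did, and the median of the members was 0.048, beside 0.0052 over all genes tested. The count of 3 became 1 without Active replicate 5, and 1 without Inactive replicate 5. It was 1 when the liver division was a covariate (Esam, log2 fold change 0.19, adjusted p = 0.503, edgeR), where 8.51% of all genes were at that level, and 1 in the fit of the 13 libraries with fewer (Emcn, lower), where 6.07% were.

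The 3 members that were higher before adjustment also had a positive value when the liver division was a covariate. Pecam1 gave a log2 fold change of 0.12 (adjusted p = 0.639, edgeR quasi-likelihood test, Benjamini-Hochberg adjustment), Cdh5 gave 0.10 (adjusted p = 0.752) and Plvap gave 0.19 (adjusted p = 0.754). Among the 13 libraries with fewer, of which only 2 were Active, Pecam1 gave 0.11, Cdh5 gave 0.15 and Plvap gave 0.06. In that fit 0 of these 3 were higher at an unadjusted p-value under 0.05 in edgeR. The cause of the differences was not tested. The term for the liver division itself reached an unadjusted p-value under 0.05 for 0 of the 10 members in edgeR, where it did so for 12.6% of all genes tested, and an adjusted p-value under 0.05 for 4.58% of them.

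Endothelial cells are also found in liver, so markers of the liver sinusoidal endothelium were examined. Clec4g had a mean of 26.7 normalized counts in the 8 libraries and 4.78 in the 13. Oit3 had 13.99 and 2.82, and Dnase1l3 had 35.0 and 8.09. Clec4g was at 0 in 2 libraries and Oit3 in 3. The sum over the 6 markers of this list ranged from 542 to 781 in the Inactive group, from 561 to 830 in the Active group and from 511 to 809 in the Activity Reduction group, most of it from Stab2, which did not follow the division (507 against 524). Of the 6 markers, 5 were higher in the Active than in the Inactive group, where 51.6% of all genes were. At an unadjusted p-value under 0.05, 1 of them was higher, where 6.18% of all genes were. With the liver division as a covariate 4 markers were higher and 2 lower, 0 at that level in edgeR. Their part in the endothelial values was not tested.

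The second comparison set mice that had trained and then stopped against mice that had never trained. In edgeR, 0 of the 10 members were differentially expressed, where 0.0124% of all genes tested were, and DESeq2 on the 3 groups called 0 of the 10, where it called 0.252% of its genes. At an unadjusted p-value under 0.05, 0 of the 10 members differed in edgeR, where 7.73% of all genes did (4.19% higher and 3.54% lower), and the adjusted p-values of the members lay between 0.758 and 0.993. The count was 1 without Inactive replicate 7. The signs were mixed, with 4 members higher and 6 lower, where 52.2% of all genes were higher and 47.8% lower, and a median log2 fold change of -0.024, beside 0.0057 over all genes. A missed threshold does not show equal levels, but the 95% intervals bound the differences. Those of 7 members lay within 0.8-fold and 1.25-fold, and the widest, that of Cldn5, reached down to 0.702-fold.

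The third comparison asked whether stopping for 2 weeks changed the endothelial transcripts relative to continued training. It shares the Active libraries with the first comparison, so its values are not independent of those above. By edgeR 0 of the 10 members were differentially expressed, where 0% of all genes tested were, and DESeq2 on the 3 groups called 0 of the 10, where it called 0.869% of its genes. Pecam1 came closest in DESeq2, with an adjusted p-value of 0.0953. At an unadjusted p-value under 0.05, 2 members were lower in the Activity Reduction group (Pecam1 and Cdh5) and 0 were higher, where 6.44% of all genes tested were lower and 6.89% higher, 13.3% in all. The count became 1 without Active replicate 5, and it was 3, with Emcn added, without any 1 of 6 other libraries. It was 1 when the liver division was a covariate (Pecam1, log2 fold change -0.16, adjusted p = 0.330, edgeR), where 10.7% of all genes were at that level, and 1 in the fit of the 13 libraries with fewer (Cdh5, -0.22, adjusted p = 0.981, edgeR), where 4.41% were. In all, 8 members were lower and 2 higher, where 50.2% and 49.8% of all genes were, and the median was -0.059, beside -0.00065 over all genes.

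Across the 3 groups at once, the quasi-likelihood test of edgeR gave 0 members with an adjusted p-value under 0.05, where 0% of all genes had one. Before adjustment Pecam1 (adjusted p = 0.268) and Cdh5 (adjusted p = 0.355) differed over the groups in that edgeR test with Benjamini-Hochberg adjustment, 2 of 10 members where 12.6% of all genes did. When the 10 log2 normalized counts were averaged within each library, the mean was 9.84 ± 0.11 for Inactive, 9.91 ± 0.064 for Active and 9.83 ± 0.088 for Activity Reduction mice (SD, n = 7 each). The ranges overlapped, and the highest library of all on this average was Inactive replicate 2 at 10.05.

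**Figure D3:**
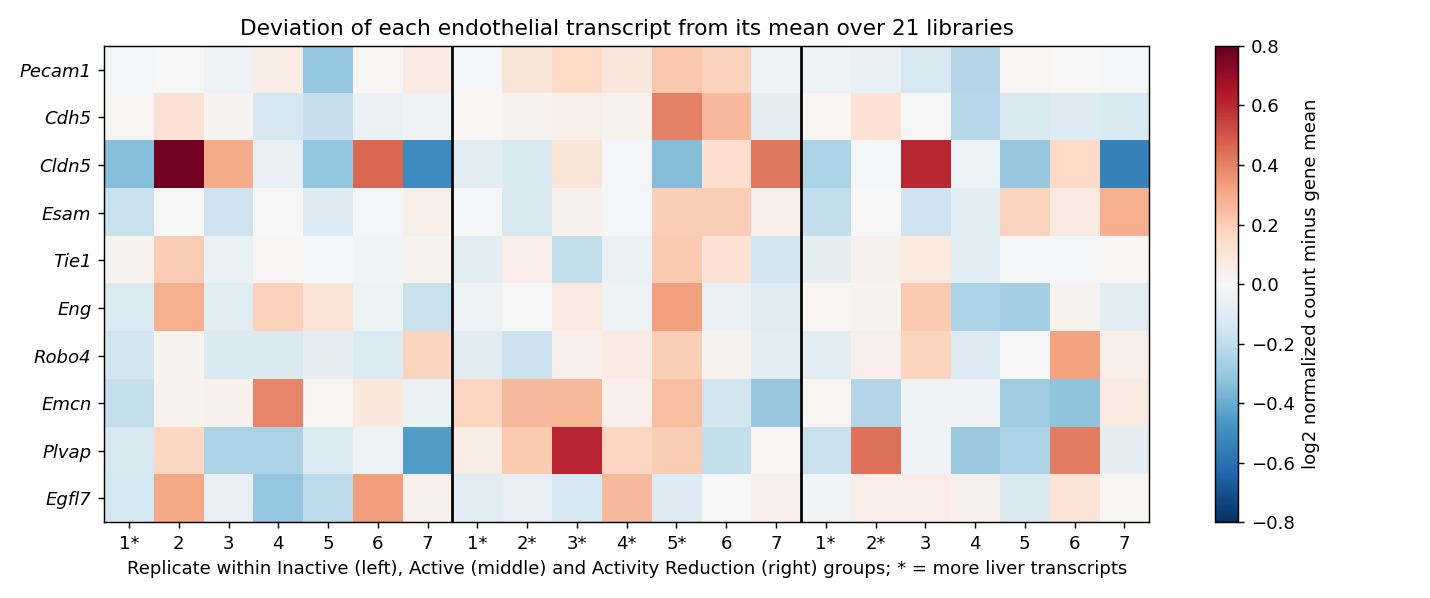
Deviation of each endothelial transcript (rows) in each library (columns, replicates 1 to 7 of the Inactive, Active and Activity Reduction groups from left to right) from its mean over 21 libraries, on the log2 scale. Asterisks mark the 8 libraries with more liver transcripts. Inactive replicate 2 and Active replicate 5 are red for many transcripts, and the Cldn5 row has the strongest colours.

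Because the members are used as a proxy of 1 quantity, how far they rose and fell together between mice of the same group was described by correlations across the 21 libraries, after the group means were removed. The points share the library and its size factor, and no test was made. Each member was set against the mean of the other 9. Since the libraries are divided by their liver transcripts, values are given within the 13 libraries with fewer and the 8 with more.

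Cdh5 followed the others in both sets of libraries (Pearson's r 0.68 in the 13 and 0.61 in the 8, Spearman's rho 0.59 over all 21), and so did Tie1 (0.72 and 0.42, rho 0.56), Eng (0.51 and 0.84, rho 0.53), Robo4 (0.45 and 0.77, rho 0.60) and Pecam1 (0.42 and 0.65, rho 0.47). Plvap had r of 0.49 and 0.25. Egfl7 (0.41 and -0.09), Cldn5 (0.30 and -0.10) and Esam (0.03 and 0.80) differed between the sets of libraries, and Emcn, whose 2 motif matches are printed above, stood apart in both (-0.03 and 0.08, rho -0.03). Some of this rested on a few libraries, as leaving out the 2 farthest libraries lowered the r over all 21 from 0.60 to 0.38 for Cdh5, from 0.60 to 0.34 for Eng and from 0.58 to 0.27 for Tie1, whereas it went from 0.46 to 0.43 for Pecam1 and from 0.54 to 0.45 for Robo4.

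Between single members the agreement was weaker. Over the 45 pairs the median r was 0.16, with 36 pairs positive, and it was 0.24 within the 13 libraries and 0.19 within the 8. Cdh5 with Tie1 had the highest value (0.72 over 21 libraries, 0.81 and 0.70 within the sets), and Emcn with Egfl7 had the lowest (-0.27, with -0.25 and -0.23 within the sets). Cldn5 and Egfl7, which followed the mean of the others weakly, had r of 0.56 with each other (0.59 and 0.40 within the sets).

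**Figure D4:**
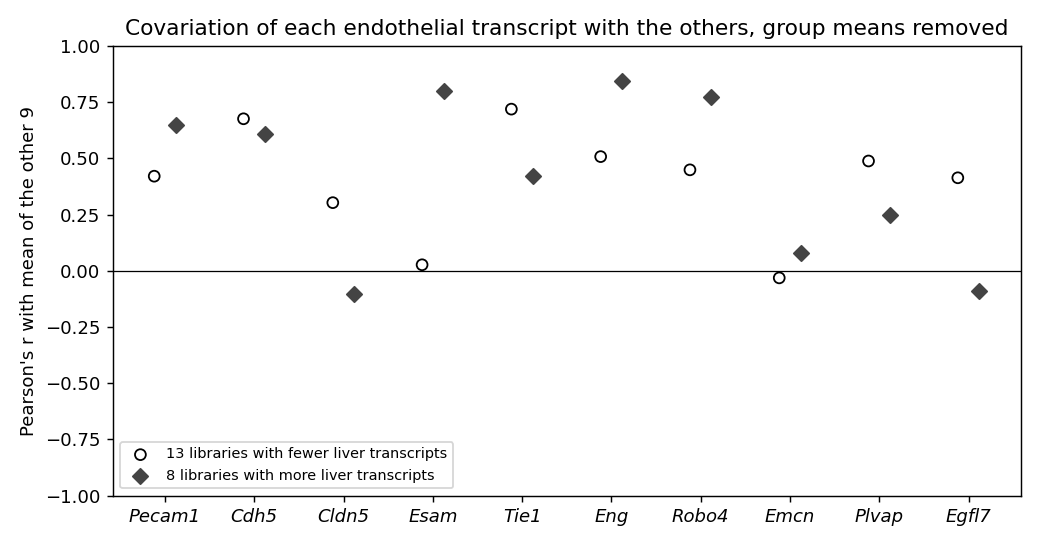
Pearson's r (vertical axis) of each endothelial transcript with the mean of the other 9 after group means were removed, in the 13 libraries with fewer liver transcripts (open circles) and the 8 with more (filled diamonds). Pecam1, Cdh5, Tie1, Eng and Robo4 are above 0.4 in both sets, and Emcn is near 0 in both.

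Other endothelial genes were set beside the members. Of 20 further genes expressed across endothelial cells, 17 were higher in the Active than in the Inactive group (median log2 fold change 0.15), 4 of them at an unadjusted p-value under 0.05, where 51.6% of all genes were higher and 6.18% at that level. Kdr, the main VEGF receptor, gave 0.29 (adjusted p = 0.333, edgeR quasi-likelihood test, Benjamini-Hochberg adjustment), from 1700 ± 338 normalized counts in the Inactive to 2067 ± 211 in the Active group (SD, n = 7 each). Ecscr, a regulator of endothelial migration, gave 0.27 (adjusted p = 0.358) and Cd93, an endothelial surface lectin, gave 0.21 (adjusted p = 0.407). In the third comparison, 14 of the 20 were lower in the Activity Reduction group (median -0.10), 3 of them at an unadjusted p-value under 0.05, where 50.2% of all genes were lower and 6.44% at that level. Kdr gave -0.42 (adjusted p = 0.112, edgeR), Cd93 gave -0.32 (adjusted p = 0.143) and Erg, an ETS factor of endothelial cells, gave -0.19 (adjusted p = 0.311). In the second, 10 were higher and 10 lower, 1 at an unadjusted p-value under 0.05. By edgeR, 0 of the 20 passed the adjusted threshold in any comparison. Means also differed by the liver division, with 1960 normalized counts in the 8 libraries and 1655 in the 13 for Kdr, and of 1316 and 1122 for Cd93. In the fit of the 13 libraries, the Active against Inactive value was 0.12 for Kdr, 0.18 for Ecscr and 0.10 for Cd93, and 1 of the 20 was higher at an unadjusted p-value under 0.05, as it was with the division as a covariate. For Activity Reduction against Active that fit gave -0.25 for Kdr, -0.22 for Cd93 and -0.38 for Erg. There 14 of the 20 were lower, with 1 lower and 1 higher at an unadjusted p-value under 0.05 in edgeR. With the division as a covariate, 3 were lower and 0 higher at that level.

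Genes of single vessel types gave the following counts, to be read beside the same shares of all genes. Of 9 capillary genes, 7 were higher in the Active than in the Inactive group and 1 at an unadjusted p-value under 0.05, namely Rgcc, a cell cycle regulator marking capillaries, which gave 0.42 (adjusted p = 0.257, edgeR quasi-likelihood test, Benjamini-Hochberg adjustment) and 0.48 in the fit of the 13 libraries. Of the same 9, 7 were lower for Activity Reduction against Active, 0 of them at an unadjusted p-value under 0.05 in edgeR. Of 8 arterial genes, 6 were higher in the Active than in the Inactive group and 5 lower in the Activity Reduction than in the Active group, 0 at an unadjusted p-value under 0.05 in either edgeR comparison. Of 6 venous genes tested, 5 were higher in the Active group, with Vwf (von Willebrand factor) at 0.23 (adjusted p = 0.427, edgeR) and at 0.09 in the fit of the 13 libraries, and 4 were lower in the Activity Reduction than in the Active group, with Selp (P-selectin) at -0.55 (adjusted p = 0.354, edgeR) and at -0.26 in that fit.

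Of 7 lymphatic genes, 7 were higher in the Active than in the Inactive group (median log2 fold change 0.43), 4 of them at an unadjusted p-value under 0.05, where 51.6% of all genes were higher and 6.18% at that level. Lyve1, a hyaluronan receptor that some macrophages also carry, gave 0.88 (adjusted p = 0.257, edgeR quasi-likelihood test, Benjamini-Hochberg adjustment), from 96.3 ± 28.0 normalized counts in the Inactive to 176 ± 35.1 in the Active group (SD, n = 7 each). Mmrn1 gave 0.95 (adjusted p = 0.349) and Ccl21a, a chemokine, gave 0.72 (adjusted p = 0.362). Prox1, the transcription factor that defines lymphatic endothelium, gave 0.03 (adjusted p = 0.964). Between Activity Reduction and Active all 7 were lower in the former (median -0.27), 1 at an unadjusted p-value under 0.05, which was Lyve1 at -0.87 (adjusted p = 0.169, edgeR). The summed lymphatic level also moved with the liver division, with a mean of 1035 normalized counts in the 8 libraries with more and 838 in the 13 with fewer. With the division as a covariate, 6 of the 7 were higher in the Active than in the Inactive group, 1 higher and 1 lower at an unadjusted p-value under 0.05, and Prox1 turned to -0.29 (adjusted p = 0.566, edgeR). For Activity Reduction against Active with that covariate, all 7 were lower. Of these, 1 was at an unadjusted p-value under 0.05 in edgeR, where 10.7% of all genes were, in either direction. In the fit of the 13 libraries Lyve1 gave 0.74, Mmrn1 0.60, Ccl21a 0.33 and Prox1 -0.27 for Active against Inactive. For Activity Reduction against Active 4 of the 7 were lower in that fit, with Lyve1 at -0.45.

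Markers of other cells in the muscle were counted in the same way, since they show what else moved with the groups, and their counts stand beside 6.18% of all genes higher in the Active than in the Inactive group and 6.44% lower in the Activity Reduction than in the Active group at an unadjusted p-value under 0.05. Of 10 mural cell genes tested (pericytes and smooth muscle), 7 were higher in the Active than in the Inactive group and 6 lower in the Activity Reduction than in the Active group, 0 at an unadjusted p-value under 0.05 in either edgeR comparison. Of 7 fibroblast genes, 7 were higher in the Active group, 2 at an unadjusted p-value under 0.05, and 7 were lower in the Activity Reduction than in the Active group, 6 at an unadjusted p-value under 0.05, with Col1a1 (collagen type I) at -0.68 (adjusted p = 0.154, edgeR quasi-likelihood test, Benjamini-Hochberg adjustment). With the liver division as a covariate all 7 were again lower (median log2 fold change -0.45). Of these, 5 were at an unadjusted p-value under 0.05 in edgeR, where 10.7% of all genes were, in either direction. In the fit of the 13 libraries, of which only 2 were Active, all 7 were also lower, with Col1a1 at -0.30. There 0 of them were at an unadjusted p-value under 0.05 in edgeR. The mean of Col1a1 was 1943 normalized counts in the 8 libraries and 1447 in the 13. Of 8 macrophage and leukocyte genes, 7 were higher in the Active group and 7 lower in the Activity Reduction than in the Active group, 2 at an unadjusted p-value under 0.05 each time, with Csf1r at 0.53 and -0.74 (adjusted p = 0.297 and 0.105, edgeR) and at 0.26 and -0.42 in the fit of the 13 libraries. With the division as a covariate, all 8 were higher in the Active group, 2 at that level in edgeR. With it, all 8 were also lower in the Activity Reduction than in the Active group, 3 at that level. All 24 hepatocyte genes were higher in the Active than in the Inactive group (median 1.22, 4 at an unadjusted p-value under 0.05) and lower in the Activity Reduction than in the Active group (median -0.91, 0 at an unadjusted p-value under 0.05 in edgeR). For Active against Inactive, 1 of 3 platelet genes tested, 1 of 5 red cell genes, 0 of 5 adipocyte genes and 1 of 8 muscle fibre genes were at an unadjusted p-value under 0.05, and for Activity Reduction against Active 1, 0, 0 and 0 were. The part of these cells in the endothelial values was not tested.

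The genes whose pattern was most like that of the members were found by correlating each of 11003 transcripts with the mean of the 10 standardized members over 21 libraries, group means removed. Ephb4, an ephrin receptor of veins and capillaries, had the highest Pearson's r (0.79 over all, 0.84 in the 13 libraries and 0.71 in the 8). It was followed by Smg6 (0.69), Hspa12b (0.69), Nos3, the endothelial nitric oxide synthase (0.69), Ift22 (0.68), Fam193b (0.67), Crip2 (0.67) and Kdm6b (0.66). Among these genes only Ephb4 and Nos3 were in the lists used here. Leaving out the 2 farthest libraries lowered each r, to between 0.53 (Hspa12b) and 0.73 (Ephb4), with Nos3 at 0.57. Of the 19 further endothelial genes that were ranked, 6 were among the top 110 transcripts, with a median r of 0.38, beside -0.0010 over all transcripts ranked. The arterial list had a median r of 0.28, the macrophage and leukocyte list 0.26, the mural list 0.26 and the capillary list 0.19. The capillary list therefore followed the members less than the mural and the macrophage lists did. Lower medians were those of the fibroblast (0.12), muscle fibre (0.10), lymphatic (0.10), venous (0.08) and hepatocyte (-0.04) lists.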

How the data were processed

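Reads had been trimmed (fastp), aligned to GRCm39 (RNA STAR) and assigned to genes (featureCounts) by the authors, who deposited whole read counts per gene and library without normalization. Tool versions, annotation and strand setting are not given in the sources used here. A table that the authors labelled as normalized was identical to the raw one in all 857913 values, and normalized counts were therefore computed here with DESeq2 size factors over the 21 libraries. Groups came from the sample titles and treatments.

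The deposited counts were fitted for all 3 groups in 1 edgeR quasi-likelihood model (edgeR 4.0.16, limma 3.58.1, R 4.3.3) after TMM normalization and edgeR's filter on low counts, and p-values were adjusted by the Benjamini-Hochberg method over 16129 genes, two-sided. The script was tested on simulated data. DESeq2 1.42.0 was an alternative, beside other normalizations, no filter, thinning to 38482455 counts, a replicate block, the liver division (the largest gap in the summed hepatocyte list, as a covariate or with only the 13 libraries below it) and leaving out each library. Correlations used log2 of the normalized count plus 1, for genes with a mean of at least 100.

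All 10 members were named in every comparison. From each other list, at most 3 genes with the smallest p for Active against Inactive and at most 3 for Activity Reduction against Active could be named, with defining markers, and the 8 genes most like the members. Mup20 and the genes overlapping members were added after their values were seen. The members and lists were chosen with earlier results of these data known. Gene positions are from GENCODE on GRCm39. No value comes from pooled libraries. Only 1 library was made per mouse, and the tests set group differences against the spread between libraries of a group. In that spread, differences between mice and between library preparations cannot be told apart.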

Additional observations from a re-analysis of the deposited data

Results flagged for a closer look

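Each of the 10 endothelial transcripts was examined in each group of 7 for a library whose gap to its nearest neighbour was large for the range of the group (Dixon's test at the 95% level). Of 30 such tests 5 passed, and chance passes about 1 in 20. In the Inactive group, Pecam1 was low in replicate 5 (2193 normalized counts), Tie1 was high in replicate 2 (1674) and Emcn was high in replicate 4 (411). In the Active group, Eng was high in replicate 5 (1666) and Egfl7 was high in replicate 4 (1397). Inactive replicate 2 also had the highest mean over the 10 members in its group, and Active replicate 5 had the highest in its own. Leaving out Inactive replicate 5 lowered the count of members at an unadjusted p-value under 0.05 for Active against Inactive from 3 to 1, and leaving out Active replicate 5 did the same.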

How the results depend on the processing

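In each alternative that gave a value, 0 of the 10 members were differentially expressed in the 3 comparisons. Leaving libraries out aside, 274 of 300 member values kept their direction and their side of the threshold, and 26 reversed. The reversed values were small other than those from the division of the libraries. For Active against Inactive, the log2 fold change of Eng was -0.0023 with DESeq2 on the 3 groups, -0.0027 with DESeq2 on the 2 groups compared, -0.0018 with DESeq2 size factors in edgeR, -0.00019 with library totals, -0.00035 without a filter and -0.0065 with thinned counts. Egfl7 gave, for Activity Reduction against Inactive, -0.032 with library totals and -0.0085 with upper quartile factors. For Activity Reduction against Active, Egfl7 gave -0.015 with library totals, and Tie1 gave 0.0015 with DESeq2 on the 3 groups, 0.0021 with DESeq2 on the 2 groups and 0.0014 with DESeq2 size factors in edgeR.

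With the liver division as a covariate, the number of members at an unadjusted p-value under 0.05 was 1 for Active against Inactive and 1 for Activity Reduction against Active, and for Active against Inactive Cldn5 gave 0.10, Eng -0.029, Emcn -0.024 and Egfl7 0.015. Within the 13 libraries with fewer liver transcripts both counts were again 1. There, Cldn5 gave 0.11, Eng -0.12 and Emcn -0.31 for Active against Inactive, and Egfl7 gave -0.018 for Activity Reduction against Inactive. There too, for Activity Reduction against Active, Tie1 gave 0.0046, Eng 0.0047, Emcn 0.11, Plvap 0.055 and Egfl7 -0.0057. The cause was not tested, and this fit has only 2 Active libraries. For genes of other lists, the division was tried after seeing the data. Of the values tried, Prox1 reversed for Active against Inactive, to -0.29 with the covariate and -0.27 within the 13 libraries.

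The replicate numbers showed no general pairing of the mice. Over 21 pairs of libraries with the same number, correlations of the deviations from group means ran from -0.222 to 0.471, with 7 over 0.1. In 4 pairs the first library correlated best with its own number in the other group. All pairs of replicate 1 were among these, at 0.29, 0.471 and 0.326. The libraries of replicate 1 were all among the 8 with more liver transcripts. With the replicate block, the counts at an unadjusted p-value under 0.05 were 3, 0 and 2, as without it, and Tie1 gave 0.0030 for Activity Reduction against Active. The block reversed no other value.

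With each library left out in turn, the number of members at an unadjusted p-value under 0.05 ranged from 1 to 3 for Active against Inactive, from 0 to 1 for Activity Reduction against Inactive and from 1 to 3 for Activity Reduction against Active, and 604 of 630 member values kept their direction and side of the threshold. Values that crossed 0 ranged, for Active against Inactive, from -0.16 to 0.072 (Cldn5), -0.073 to 0.00022 (Tie1), -0.055 to 0.050 (Eng) and -0.065 to 0.046 (Egfl7). For Activity Reduction against Inactive they ranged from -0.051 to 0.0029 (Cdh5), -0.26 to 0.019 (Cldn5) and -0.043 to 0.067 (Egfl7). For Activity Reduction against Active they ranged from -0.19 to 0.029 (Cldn5) and -0.030 to 0.036 (Tie1).

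The 95% intervals of 8, 7 and 7 of the 10 members lay within 0.8-fold and 1.25-fold in the comparisons in the order of the report, and those of the others reached further. Whether the counting used strand would matter for Plvap, Egfl7 and Eng.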
